A study of Mus musculus with 15 samples.

Results

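Kidneys of wild-type (WT) mice labelled L-ala (L-alanine) were compared with kidneys labelled Vehicle, both at 2 h, across the whole transcriptome. The comparison used 10 of the 15 libraries of the study, 5 L-ala and 5 vehicle, chosen by the treatment that the labels name. The other 5 libraries, labelled D-ala (D-alanine, the mirror form of L-alanine) and likewise WT and 2 h, are given as further values. The sources used here give no strain, age, dose or route and do not say what the vehicle held, so matched doses cannot be assumed. Replicate numbers follow accession order and pair no samples. The labels do not say that samples came from separate animals, so p-values measure the spread between these samples, which may be technical.

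L-alanine is the form of alanine built into proteins, and the kidney recovers it from the filtrate through carriers of the proximal tubule. Alanine aminotransferase (Gpt) converts it to pyruvate, from which the proximal tubule can make glucose. Immediate early genes are transcribed within minutes of many stimuli because the factors that switch them on are already present in the cell. NF-kB transcription factors are held in the cytoplasm by inhibitors such as IkB-alpha (Nfkbia), whose gene is itself an NF-kB target, as are several chemokine genes.

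Values are FPKM (fragments corrected for the length of the transcript and the depth of the library), and changes are L-ala minus vehicle on log2(FPKM + 1), a scale that understates the change of low genes. Adjusted p-values come from limma with Benjamini-Hochberg adjustment over all 11781 tested genes, and a gene rose or fell where that value was under 0.05. The estimated depth was 7.57 to 10.9 M reads per library. All 14 proximal tubule markers were tested, with a mean log2 level of 9.02 to 9.13 in vehicle and 9.14 to 9.28 in L-ala libraries. L-ala replicate 5 stood apart: on average its gene-centred values correlated at -0.118 with the rest of its group, against 0.119 to 0.138 for the other L-ala libraries. Gene length moved with the groups. The Spearman correlation of a library's gene-centred values with gene length, across genes, was 0.16, 0.41, 0.29, 0.44 and -0.05 in vehicle replicates 1 to 5 and -0.40, -0.13, -0.45, -0.48 and 0.28 in L-ala replicates 1 to 5. The group means differed by -0.49 (exact two-sided permutation test, p = 0.0317), and L-ala replicate 5 lay on the vehicle side. The trend was known in these libraries before it was tested, so the test gives no independent support. Its p-value was not under 0.05 when some single libraries were left out, as given in the last section. The D-ala libraries had 0.15 ± 0.13 (SD, n = 5). The plot of length against fold change shows this trend and its removal by a smooth fit per library.

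**Figure D1:**
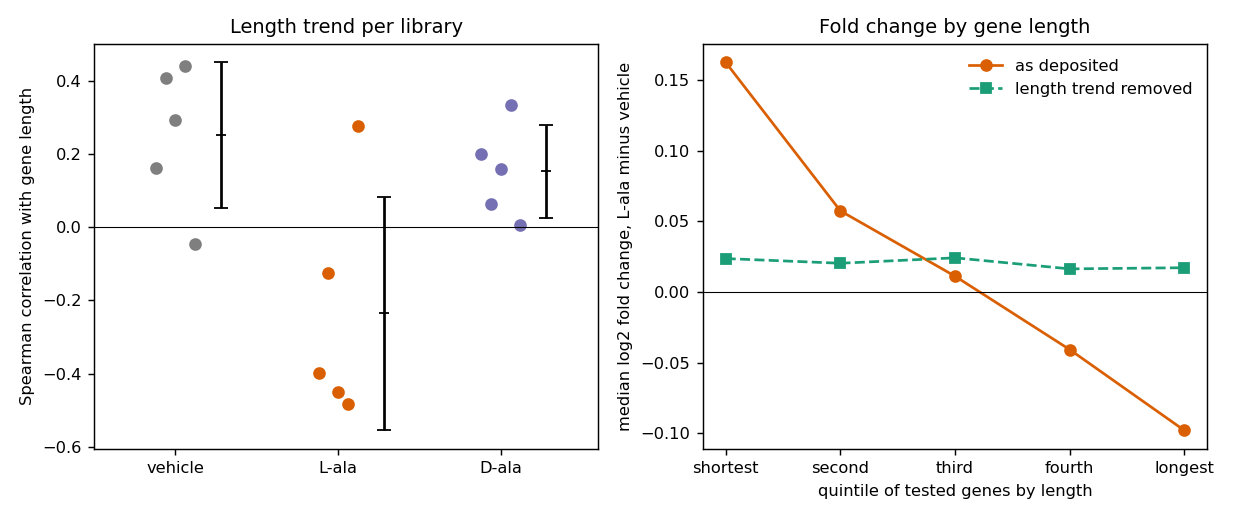
Left, Spearman correlation of gene-centred log2(FPKM + 1) with gene length in each of 15 libraries (points) with group mean and SD (bars, n = 5). Right, median log2 fold change, L-ala minus vehicle, in each quintile of tested genes by length, as deposited (circles) and with the length trend of each library removed (squares); the medians run from 0.16 in the shortest quintile to -0.10 in the longest as deposited, and are 0.02 in both after removal.

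After L-alanine, 763 genes rose and 534 fell, together 1297 of 11781 tested or 11% (6.48% rose and 4.53% fell). Most changes were small, with a median absolute log2 change of 0.33 among the genes that passed. A change of 2-fold or more was found in 49 of the rises and 12 of the falls. The 5 L-ala libraries lay wholly above the 5 vehicle libraries for 473 genes (4.01%) and wholly below them for 380 (3.23%), together 7.24% of those tested. With the length trend removed, 513 genes rose (4.35%) and 296 fell (2.51%), together 6.87% of those tested, and 387 of the rises and 241 of the falls were among the first set. Of the changes of 2-fold or more, 45 of 49 rises and 11 of 12 falls still passed. The total also moved with single libraries: 2580 genes passed without L-ala replicate 5, 321 without vehicle replicate 4 and 391 without L-ala replicate 4. It was 626, 797, 802 and 760 without L-ala replicates 1 and 3 and vehicle replicates 1 and 2. Chemokine and NF-kB feedback genes, immediate early transcription factors and growth arrest genes are described first.

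The largest rise was that of Cxcl1 (chr5:90891241-90893115, plus strand on GRCm38), a chemokine that attracts neutrophils. Cxcl1 read 0.325, 2.45, 0.99, 1.07 and 1.49 FPKM in vehicle replicates 1 to 5 and 62.02, 64.5, 102, 69.9 and 51.03 FPKM in L-ala replicates 1 to 5. Every L-ala library was above every vehicle library, and the change was 4.999 ± 0.57 (SE; adjusted p = 9.54e-04). The D-ala libraries read 16.8, 45.4, 2.83, 16.6 and 42.7 FPKM, and Cxcl1 was higher under L-ala than under D-ala by 1.87 ± 0.57 (adjusted p = 0.0479). Cxcl2 (chr5:90903871-90905938, plus strand), the neighbouring chemokine gene of the same cluster, read 0, 0.218, 0.105, 0.101 and 0.115 FPKM in vehicle and 2.32, 4.096, 6.57, 3.94 and 2.79 FPKM in L-ala libraries. It was near 0 in vehicle and at a few FPKM in all 5 L-ala libraries, without overlap (2.1001 ± 0.20, adjusted p = 6.24e-05). No vehicle library reached the 1 FPKM of the expression filter, so Cxcl2 was tested only because its L-ala libraries were high. Without the filter its adjusted p in limma was 1.14e-04. In the D-ala libraries Cxcl2 lay at 0.104 to 1.05 FPKM, below the L-ala libraries by 1.799 ± 0.20 (adjusted p = 6.84e-05). Most other chemokines and cytokines did not follow. Of 33 listed genes, 15 were tested. Of these, 2 rose and 2 fell, where 6.48% of all tested genes rose and 4.53% fell. The median change of the list was 0.07 against 0.01 over all tested genes. The falls were Cxcl12 (-0.62, adjusted p = 0.0234), which retains blood cells in their niches, and Cxcl14 (-0.68, adjusted p = 0.0448). Cxcl12 no longer passed without vehicle replicate 4 or L-ala replicate 4 (adjusted p up to 0.0713), and Cxcl14 no longer passed without vehicle replicates 1, 2, 3 or 4 or L-ala replicates 1, 2, 4 or 5 (adjusted p up to 0.118). Cxcl10, an interferon-induced chemokine, changed by 2.62 and did not pass (adjusted p = 0.0513). Its highest vehicle library, at 68.69 FPKM, lay above its highest L-ala library, at 60.05 FPKM. The genes of the cytokines Il6, Tnf, Lif and Osm were all below the expression filter.

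Some NF-kB inhibitors and brakes rose, while most of the NF-kB list did not pass. Nfkbia (chr12:55489410-55492647, minus strand) read 21.98, 38.8, 40.3, 33.9 and 51.9 FPKM in vehicle and 162, 189, 282, 204 and 148 FPKM in L-ala libraries. The lowest L-ala library was more than 2-fold above the highest vehicle library, and the change was 2.38 ± 0.37 (adjusted p = 0.00411). The D-ala libraries read 35.6, 86.5, 18.5, 22.8 and 50.2 FPKM, which spans the vehicle range. The difference between L-ala and D-ala was 2.36 ± 0.37 (adjusted p = 0.00227), and D-ala minus vehicle was 0.03. Tnfaip3 (chr10:19000910-19015657, minus strand), which encodes A20, a ubiquitin-editing brake on NF-kB signalling, read 1.43, 4.39, 2.02, 1.96 and 1.195 FPKM in vehicle and 8.07, 16.5, 12.5, 14.4 and 12.5 FPKM in L-ala libraries. The groups did not overlap (2.15 ± 0.32, adjusted p = 0.00298), and L-ala exceeded D-ala by 2.296 ± 0.32 (adjusted p = 8.60e-04). Nfkbiz, an atypical IkB protein of the nucleus, went from 2.44 ± 0.767 to 8.82 ± 2.74 FPKM (SD, n = 5; adjusted p = 0.0096). For Nfkbiz, L-ala and D-ala differed by 0.59 ± 0.29 (adjusted p = 0.177). Ier3, a survival gene, rose by 1.14 and Sod2, the mitochondrial superoxide dismutase, by 0.22. Sod2 no longer passed without vehicle replicate 4 (adjusted p = 0.0651) or L-ala replicate 4 (adjusted p = 0.0541). Nor did it pass under quantile normalization (0.435), with the 10 libraries alone (0.0585) or with voom on summed rescaled counts (0.0902). The subunit gene Nfkb1 fell by 0.43 (adjusted p = 0.0206; 0.0518 to 0.068 without vehicle replicate 4 or L-ala replicates 1 or 4). The subunit genes Rela (0.14), Relb (-0.15) and Nfkb2 (0.19) did not pass. In all, 5 of 26 tested NF-kB genes rose and 1 fell, where 6.48% of all tested genes rose and 4.53% fell. The median of the list was 0.05. The count of rises was 8 without vehicle replicate 2.

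Promoters with an NF-kB consensus motif are shown for the 4 genes of this group that rose and were also higher under L-ala than under D-ala. Among the 49 genes that rose 2-fold or more, 39 had a promoter entry in RefSeq on GRCm38.p6, and the 250 bases before each start were searched on both strands. The NF-kB consensus was present in 9 of the 39 (Cxcl1, Cxcl2, Elf3, Fos, Ier3, Irf1, Nfkbia, Pim3 and Tnfaip3), in 10.5% of 9262 tested genes with an entry and in 8.23% of all 27025 promoters. A narrower form of the motif, searched first and widened after its matches had been seen, was present in 3 of the 39 (Cxcl1, Cxcl2 and Nfkbia), in 1.46% of the tested genes with an entry and in 1.36% of all promoters. The match began 71, 97, 29 and 125 bases before the start of Cxcl1, Cxcl2, Nfkbia and Tnfaip3. Tnfaip3 held a second match, on the opposite strand, that began 12 bases before the start and is not shown, and Cxcl1 and Cxcl2 each held another on the opposite strand, shifted by 1 base. Capitals mark the first match, and each stretch is written 5′ to 3′ on the strand of its gene. The Nfkbia match lies on the opposite strand, so its capitals show the reverse complement of the motif.
Cxcl1 (chr5:90891144-90891213, plus strand): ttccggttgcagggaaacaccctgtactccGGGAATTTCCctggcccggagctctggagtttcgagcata
Cxcl2 (chr5:90903772-90903841, plus strand): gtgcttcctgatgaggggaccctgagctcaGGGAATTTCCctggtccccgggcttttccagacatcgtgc
Nfkbia (chr12:55492648-55492706, minus strand): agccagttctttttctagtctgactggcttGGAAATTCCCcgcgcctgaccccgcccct
Tnfaip3 (chr10:19015496-19015565, minus strand): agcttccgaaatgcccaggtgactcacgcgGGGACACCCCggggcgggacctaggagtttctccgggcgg
A match is a run of letters and does not show binding. The 10 bases in capitals were identical in Cxcl1 and Cxcl2.

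The neutrophil transcripts S100a8 and S100a9 rose, and no red blood cell transcript passed. S100a8, a calcium-binding protein abundant in neutrophils, read 1.31, 2.59, 2.49, 4.79 and 0 FPKM in vehicle and 7.19, 15.3, 10.1, 19.4 and 5.42 FPKM in L-ala libraries (2.03 ± 0.48, adjusted p = 0.0231). Its partner S100a9 read 1.72, 3.41, 2.29, 2.83 and 0.359 FPKM in vehicle and 8.19, 17.996, 4.52, 14.01 and 6.34 FPKM in L-ala libraries (1.802 ± 0.42, adjusted p = 0.0204). Neither gene's groups overlapped, and both also exceeded the D-ala libraries, by 1.996 ± 0.48 and 1.63 ± 0.42 (adjusted p = 0.0195 and 0.0235). Both calls were lost without L-ala replicate 4 (adjusted p = 0.0615 and 0.0573) and with the length trend removed (0.0554 and 0.0527). These were the only neutrophil markers past the filter of 10 in the table. Retnlg averaged 0.19 FPKM in vehicle and 0.88 in L-ala, and Camp was listed at 0 in all 10 libraries. The summed level of the neutrophil list was 0.676 to 8.12 FPKM in vehicle, 13.2 to 35.5 in L-ala and 2.58 to 11.4 in D-ala libraries. In the L-ala libraries S100a8 and S100a9 made up most of that sum, so it adds little from the other markers. Haemoglobin transcripts varied widely. Hba-a1 read 193, 12.5, 157, 80.5 and 21.5 FPKM in vehicle and 199, 312, 549, 382 and 329.5 FPKM in L-ala libraries, above all vehicle libraries but short of the threshold (2.497 ± 0.81, adjusted p = 0.0663). None of 7 tested red blood cell genes passed (7 at an unadjusted p under 0.05 in limma), although their median was 2.11 and 3 lay wholly above the vehicle libraries. With the trend of each library with GC content removed their median was 1.196, and over the alternative settings at most 2 passed. The summed red blood cell level was 70.6 to 655 FPKM in vehicle and 633 to 1738 in L-ala libraries, which overlapped, and 114 to 1169 in D-ala libraries. Macrophage and dendritic cell markers did not move the same way: 0 of 13 rose and 1 fell (Lyz2, -0.38), with a median of -0.15. The shares over all tested genes were 6.48% rising and 4.53% falling. Lyz2 no longer passed without vehicle replicates 1 or 4 or L-ala replicates 1 or 4 (adjusted p up to 0.0677). The part of these cells in the rise of Cxcl1, Cxcl2 or Nfkbia was not tested. In bulk tissue a change in the number of cells and a change in RNA per cell cannot be told apart.

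**Figure D2:**
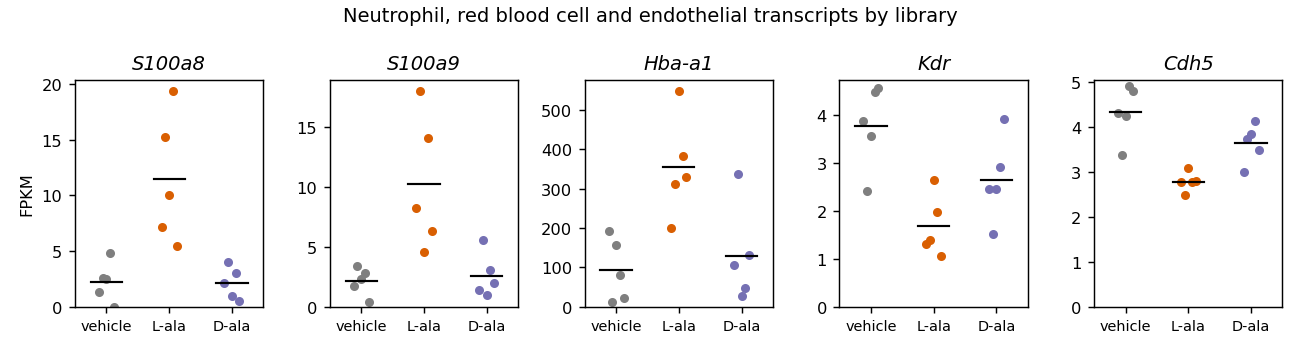
FPKM in each library (points, 5 per group) and group mean (line) for S100a8 and S100a9 (neutrophils), Hba-a1 (red blood cells), and Kdr and Cdh5 (endothelium). All 5 L-ala libraries lie above the vehicle libraries for S100a8, S100a9 and Hba-a1, and below them for Cdh5; axes start at 0.

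Immediate early transcription factors rose as a group: 10 of 18 tested members rose and none fell (1 at an unadjusted p under 0.05 in limma), with a median change of 0.93. Across all tested genes the shares were 6.48% rising and 4.53% falling. Fos (chr12:85473890-85477273, plus strand), a partner of Jun in the AP-1 factor, read 0.192, 4.301, 5.11, 2.19 and 2.13 FPKM in vehicle and 17.2, 22.7, 62.3, 19.6 and 13.2 FPKM in L-ala libraries. L-ala replicate 3 was far above the others, and the lowest L-ala library was still above the highest vehicle library (2.87 ± 0.45, adjusted p = 0.00529). Egr1 (chr18:34859823-34864984, plus strand), a zinc finger factor, read 1.01, 16.4, 8.36, 6.64 and 5.48 FPKM in vehicle and 40.3, 55.3, 69.8, 38.01 and 37.4 FPKM in L-ala libraries, again without overlap (2.78 ± 0.48, adjusted p = 0.00757). The low value of vehicle replicate 1 recurred in Fos and Egr1. Jun (chr4:95049034-95052222, minus strand) was steadier, at 13.3, 18.1, 19.3, 14.3 and 21.1 FPKM in vehicle and 66.6, 83.6, 156, 100.1 and 84.3 FPKM in L-ala libraries (2.404 ± 0.21, adjusted p = 6.24e-05). Junb (chr8:84974484-84978718, minus strand), another AP-1 subunit, ranged from 11.6 to 25.7 FPKM in vehicle and from 83.6 to 157 FPKM in L-ala libraries (2.44 ± 0.23, adjusted p = 1.81e-04). The calls for Fos, Egr1, Jun and Junb held in all 22 alternative settings. Nr4a1, an orphan nuclear receptor, rose by 2.26, but no longer passed without vehicle replicate 4 (adjusted p = 0.0515) or with the 10 libraries alone (0.0654). Ier2 rose by 1.94, Jund by 0.91 and Ier5l by 0.95. Atf3, a stress-induced repressor, rose by 1.497 with an adjusted p of 0.0438 and no longer passed without vehicle replicates 1, 4 or 5 or L-ala replicates 1, 2, 3 or 4 (adjusted p up to 0.105), or with the length trend removed (0.0593). Myc (-0.07) and Srf (0.07) did not pass. The count of rises ran from 8 to 11 when libraries were left out in turn and was 9 with the length trend removed. Between L-ala and D-ala libraries 13.7% of all tested genes differed (7.01% lower and 6.66% higher under L-ala), and 5 of 18 members of this list were lower under L-ala.

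**Figure D3:**
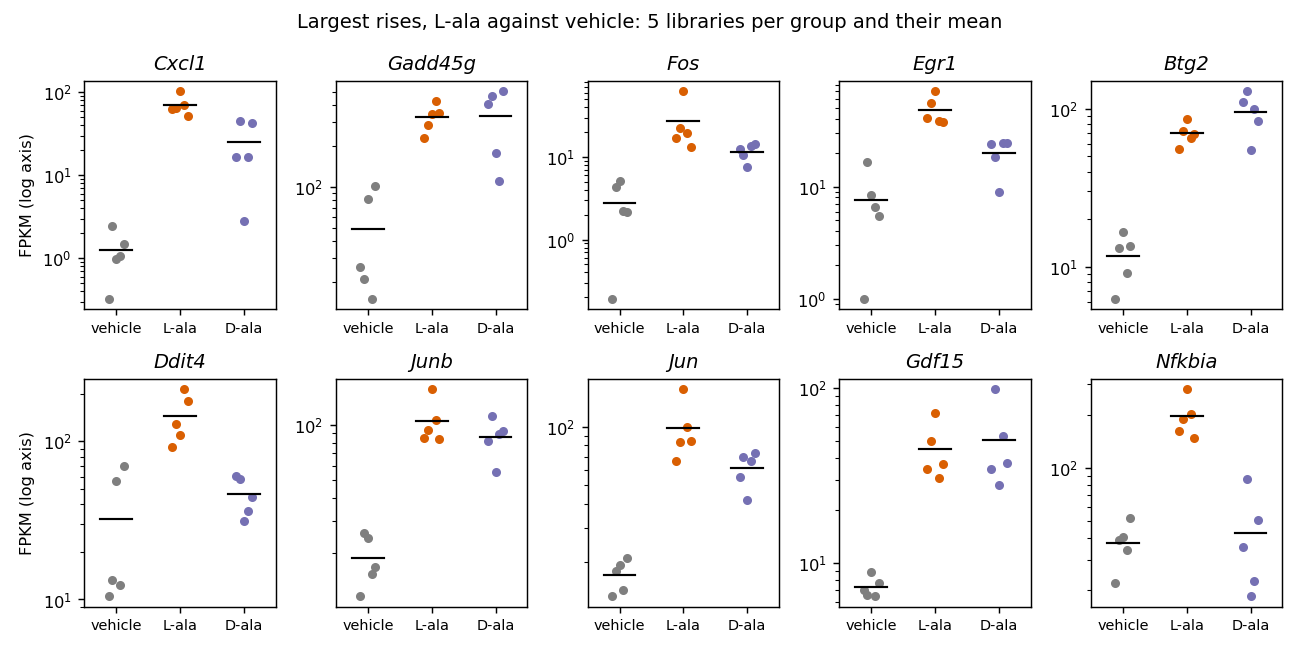
FPKM on a log axis in each library (points, 5 per group) with the group mean (line) for the 10 largest rises under L-ala chosen by the stated rule. In all 10 genes every L-ala library lies above every vehicle library, while Nfkbia in D-ala libraries spans the vehicle range.

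Genes of growth arrest and messenger RNA decay were among the strongest rises. Gadd45g (chr13:51846678-51848468, plus strand), a stress protein that binds p38 pathway kinases, read 25.7, 21.01, 80.7, 15.1 and 102 FPKM in vehicle and 227, 283, 342, 427 and 349 FPKM in L-ala libraries. Vehicle replicates 3 and 5 were several-fold above the other vehicle libraries, yet below all L-ala libraries (3.07 ± 0.57, adjusted p = 0.0102). Btg2 (chr1:134075170-134079120, minus strand), an anti-proliferative adaptor of the deadenylase complex, read 6.25, 13.01, 16.6, 9.098 and 13.4 FPKM in vehicle and 55.8, 71.96, 86.7, 65.1 and 69.5 FPKM in L-ala libraries (2.53 ± 0.25, adjusted p = 1.81e-04). Zfp36 (chr7:28376784-28380253, minus strand), which encodes tristetraprolin and targets AU-rich cytokine messages for decay, read 28.03, 22.1, 42.99, 23.1 and 54.6 FPKM in vehicle and 142, 157, 244, 160.1 and 139.6 FPKM in L-ala libraries. The groups were well apart, with L-ala replicate 3 highest (2.33 ± 0.25, adjusted p = 3.98e-04). Of 14 tested Zfp36 and Btg/Tob genes, 4 rose, including Tob1 (0.73) and Tob2 (1.12), and the deadenylase subunit Cnot7 fell (-0.30). Tob2 no longer passed without vehicle replicates 2 or 4 or L-ala replicate 4 (adjusted p up to 0.075). Plk3, a stress kinase, read 2.57, 5.83, 47.5, 4.37 and 15.05 FPKM in vehicle and 36.03, 60.6, 54.7, 116 and 109 FPKM in L-ala libraries, where vehicle replicate 3 lay within the L-ala range (2.79 ± 0.61, adjusted p = 0.0194). Its call was lost without vehicle replicate 4 (0.0606) and without L-ala replicate 4 (0.0541). Among 18 tested p53-linked stress genes, 6 rose and none fell (0 at an unadjusted p under 0.05 in limma), with a median of 0.13. For this and the Zfp36 and Btg/Tob list, the shares over all tested genes were 6.48% rising and 4.53% falling. Of the other listed genes, Mdm2 (-0.01), Ccng1 (-0.03), Phlda3 (-0.07) and Zmat3 (-0.01) did not pass. The cell cycle inhibitor Cdkn1a rose by 1.01 but no longer passed without vehicle replicates 1, 2 or 4 or L-ala replicates 1 or 4 (adjusted p up to 0.0877), and Pmaip1, a BH3-only death gene, by 1.06. Without vehicle replicate 4, 4 of these genes rose.

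Feedback genes of kinase pathways moved in both directions. Over all tested genes 6.48% rose and 4.53% fell, and the small list counts below were not tested against those shares. Dusp1 (chr17:26505590-26562128, minus strand), a phosphatase of MAP kinases, read 27.8, 29.2, 112, 30.5 and 65.7 FPKM in vehicle and 154, 191, 245, 245 and 262 FPKM in L-ala libraries. Vehicle replicate 3 was the highest vehicle library and remained below the lowest L-ala library (2.23 ± 0.33, adjusted p = 0.00325). Of 14 tested Dusp and Sprouty genes, 2 rose (Dusp1 and Dusp5) and 2 fell (Spry1 and Spred2). The falls were -0.48 and -0.67, and without vehicle replicate 4 neither passed (adjusted p = 0.0646 and 0.0517), nor did Spry1 without L-ala replicate 4 (0.0576). In the EGF receptor family, the ligand gene Hbegf (chr18:36504927-36515805, minus strand) read 6.84, 8.76, 11.3, 7.804 and 12.3 FPKM in vehicle and 17.8, 24.1, 31.8, 30.4 and 36.02 FPKM in L-ala libraries (1.47 ± 0.21, adjusted p = 0.00229). The receptor gene Erbb3 (chr10:128567523-128589652, minus strand) read 11.7, 18.7, 8.66, 15.2 and 9.58 FPKM in vehicle and 3.54, 7.09, 3.91, 3.77 and 7.18 FPKM in L-ala libraries. It fell without overlap (-1.18 ± 0.22, adjusted p = 0.00806), while the intracellular brake Errfi1 rose by 0.93. Of 12 tested genes of this family, 2 rose and 1 fell. In the IL-6 and Socs list, 2 of 22 rose and 2 fell, or 4 without L-ala replicate 5. The receptor gene Il11ra1 rose by 0.35 but no longer passed without vehicle replicates 1 or 4 or L-ala replicates 1, 3 or 4 (adjusted p up to 0.0948). Pim3, a survival kinase, rose by 1.39, and its relative Pim1 ranged from 2.995 to 3.98 FPKM in vehicle and from 1.69 to 2.797 FPKM in L-ala libraries and fell (-0.40 ± 0.10, adjusted p = 0.0203). Under quantile normalization the fall of Pim1 did not pass (adjusted p = 0.0604). Pim1 under D-ala was at 3.93 to 5.003 FPKM, above the L-ala libraries without overlap (L-ala minus D-ala -0.65 ± 0.10, adjusted p = 8.25e-04). Socs2 (chr10:95385362-95417180, minus strand), a feedback inhibitor of growth hormone signalling, read 11.04, 6.39, 7.57, 9.25 and 5.55 FPKM in vehicle and 3.54, 2.28, 3.76, 2.29 and 2.61 FPKM in L-ala libraries. All L-ala libraries were lower, and the fall was -1.18 ± 0.30 (adjusted p = 0.0261). It was 0.0542 without vehicle replicate 1, 0.0737 without vehicle replicate 4 and 0.0706 without L-ala replicate 4. Socs2 in D-ala libraries ranged from 3.44 to 13.5 FPKM, higher than in L-ala by 0.95 (adjusted p = 0.0489).

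Genes that glucocorticoids induce rose in number: 10 of 20 tested members rose and none fell (0 at an unadjusted p under 0.05 in limma), with a median of 0.50. Across all tested genes 6.48% rose and 4.53% fell. Several members of this list also stand in other lists (Dusp1, Nfkbia, Errfi1, Cdkn1a). Ddit4 (chr10:59949669-59951834, minus strand), an inhibitor of the mTORC1 kinase, read 10.4, 13.3, 55.8, 12.3 and 70.3 FPKM in vehicle and 92.4, 129.6, 109.99, 214 and 180.2 FPKM in L-ala libraries. Vehicle replicates 3 and 5 were again high but below the lowest L-ala library (2.51 ± 0.51, adjusted p = 0.0146). With the 10 libraries alone the adjusted p was 0.0505. Cebpd rose by 2.08, Tsc22d3, which encodes the glucocorticoid-induced leucine zipper GILZ, by 1.23, and Sgk1, a kinase of sodium transport, by 0.29. Sgk1 no longer passed without vehicle replicates 1, 2, 3, 4 or 5 or L-ala replicates 2, 3 or 5 (adjusted p up to 0.0917). Fkbp5 (0.01), Zbtb16 (0.28), Klf9 (-0.17) and Per1 (0.79, adjusted p = 0.0813) did not pass. Without vehicle replicate 4, 6 members rose.

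The response to amino acid imbalance that runs through the factor ATF4 was mixed. Gdf15 (chr8:70629393-70632456, minus strand), a stress-induced secreted factor, read 7.02, 6.54, 8.899, 6.43 and 7.69 FPKM in vehicle and 34.4, 49.8, 71.9, 30.8 and 36.8 FPKM in L-ala libraries (2.399 ± 0.30, adjusted p = 0.00127). Its vehicle values were tight and its L-ala values all several-fold higher. Cebpb, a leucine zipper factor, ranged from 9.85 to 40.3 FPKM in vehicle and from 67.2 to 145 FPKM in L-ala libraries (2.35 ± 0.42, adjusted p = 0.00912), and Ddit3 (CHOP) rose by 0.79. Ddit3 no longer passed without vehicle replicate 4 or L-ala replicate 4 (adjusted p up to 0.0593), or with the length trend removed (0.0604). In total 6 of 25 tested members rose and 1 fell, where 6.48% of all tested genes rose and 4.53% fell. The median of the list was 0.21. The biosynthetic targets Asns (-0.12), Psat1 (0.27), Phgdh (0.23) and Mthfd2 (-0.11) did not pass, while another, Shmt2, rose by 0.21 (adjusted p = 0.0326). Shmt2 no longer passed without vehicle replicates 1, 3 or 4 or L-ala replicates 1, 3 or 4 (adjusted p up to 0.097). Atf4 itself read 61.7, 83.2, 103, 88.1 and 77.9 FPKM in vehicle and 102, 99.2, 112, 112 and 95.96 FPKM in L-ala libraries and did not pass (0.35 ± 0.12, adjusted p = 0.0614). It was lower under L-ala than under D-ala by 0.60 (adjusted p = 0.0047), where it read 136 to 199.9 FPKM. Of 20 aminoacyl-tRNA synthetases, which charge transfer RNAs, 1 rose (Hars, 0.18), where 6.48% of all tested genes rose. The Hars call no longer passed without vehicle replicates 2, 3 or 4 or L-ala replicates 1 or 4 (adjusted p up to 0.0793). With the summed rescaled counts as library sizes in voom, a setting that moves the median of all genes by -0.10, the medians of the NF-kB, chemokine, Zfp36 and Btg/Tob, Dusp and tRNA synthetase lists turned negative.

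**Figure D4:**
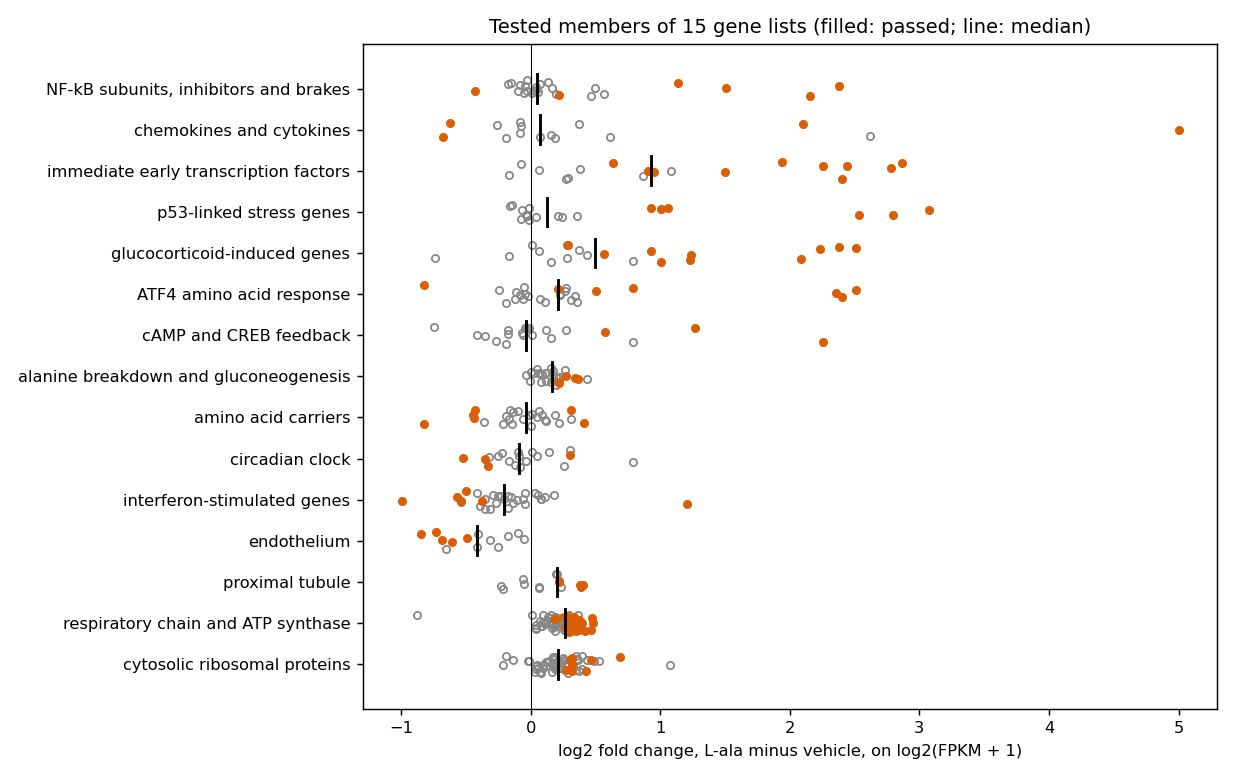
Log2 fold change, L-ala minus vehicle, of each tested member (points; filled where the gene passed) and the median (line) in 15 gene lists. Respiratory chain genes lie above 0 in 75 of 76 cases and ribosomal protein genes in 58 of 63, while single chemokine and NF-kB genes lie far above the median of their list.

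Several cAMP-responsive genes rose, though most of that list did not. Sik1 (chr17:31844250-31855804, minus strand), a salt-inducible kinase that restrains CREB coactivators, read 13.5, 17.5, 32.4, 14.4 and 20.2 FPKM in vehicle and 34.4, 44.3, 40.6, 52.1 and 65.3 FPKM in L-ala libraries (1.27 ± 0.21, adjusted p = 0.00445). The D-ala libraries read 89.1, 84.7, 69.3, 75.9 and 92.1 FPKM, all above the L-ala libraries, and the difference was -0.81 ± 0.21 (adjusted p = 0.0218). Of 20 tested genes, 3 rose (Sik1, Rgs2 and Nr4a1) and none fell (5 at an unadjusted p under 0.05 in limma), with a median of -0.04. Across all tested genes 6.48% rose and 4.53% fell. The count of cAMP list rises was 5 without vehicle replicate 3. The median of that list changed sign with the length trend removed (0.03) and under quantile normalization. The CRE motif TGACGTCA was found on either strand within the searched 250 bases of 6 of the 39 promoters of large rises (Arl4d, Btg2, Dusp1, Moap1, Rcan1 and Slc25a25). It was present in 2.98% of the tested genes with an entry. The AP-1 motif TGANTCA, which shares no match with the CRE, was present in 3 of 39 (Csrnp1, Rcan1 and Tnfaip3) and 5.39% of tested genes. The CArG box of serum response factor was present in 1 of 39 (Zfp36) and 1.35% of tested genes. The stretches around the CRE of the pair with the largest changes, 166 and 143 bases before the start, show the match in capitals.
Btg2 (chr1:134079284-134079351, minus strand): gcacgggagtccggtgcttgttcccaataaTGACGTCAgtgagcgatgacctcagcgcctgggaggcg
Dusp1 (chr17:26508578-26508645, minus strand): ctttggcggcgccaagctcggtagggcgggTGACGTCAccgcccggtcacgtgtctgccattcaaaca
The start used is that of RefSeq; the GENCODE span of Dusp1 given above reaches further upstream. The 8 bases in capitals are their own reverse complement, so the match has no strand.

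Of the genes that break down alanine and make glucose from it, a minority rose, each by a small amount. Gpt, the first enzyme of alanine breakdown, read 18.3, 21.5, 20.2, 19.02 and 22.05 FPKM in vehicle and 20.9, 23.9, 23.9, 31.8 and 18.8 FPKM in L-ala libraries, which overlapped (0.21 ± 0.13, adjusted p = 0.267). Dao, which oxidises D-amino acids, read 229, 248, 228, 194 and 243 FPKM in vehicle and 263, 268, 285, 276 and 239.5 FPKM in L-ala libraries (0.22 ± 0.07, adjusted p = 0.0566). Pck1, which commits carbon to glucose, ranged from 1343 to 3107 FPKM in vehicle and from 2899 to 3491 FPKM in L-ala libraries (0.43 ± 0.18, adjusted p = 0.125). None of the 3 passed. Among 26 tested genes of alanine breakdown and gluconeogenesis, 5 rose and none fell (0 at an unadjusted p under 0.05 in limma), with 24 changes above 0 and a median of 0.17. The shares over all tested genes were 6.48% rising and 4.53% falling. The rises in this list were Slc37a4, the glucose-6-phosphate carrier (0.37), the aspartate aminotransferase Got1 (0.34), the phosphatase G6pc3 (0.27) and the malate dehydrogenases Mdh1 (0.22) and Mdh2 (0.22). Slc37a4 no longer passed without vehicle replicates 1, 2 or 4 or L-ala replicate 4 (adjusted p up to 0.0814), Got1 no longer passed without vehicle replicates 1 or 4 or L-ala replicate 4 (adjusted p up to 0.0837), Mdh1 no longer passed without vehicle replicates 1, 2, 4 or 5 or L-ala replicates 1, 2, 3 or 4 (adjusted p up to 0.118), and Mdh2 no longer passed without vehicle replicates 1 or 4 or L-ala replicates 1, 3 or 4 (adjusted p up to 0.0867). That count was 1 without vehicle replicate 1, 1 without vehicle replicate 4, 1 without L-ala replicate 4 and 8 without L-ala replicate 5. It was 3 without vehicle replicate 2 or L-ala replicates 1 or 3, and 0 under quantile normalization. Gapdh and Eno1, glycolytic enzymes that every cell uses, were listed at or near 0 FPKM in these libraries, so a value near 0 in this table does not show that a gene was silent.

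The smallest adjusted p among the tested carriers was that for the fall of Slc38a2 (chr15:96687392-96699730, minus strand), which encodes SNAT2, a carrier that imports alanine and other small neutral amino acids together with sodium. Slc38a2 read 16.1, 18.5, 18.5, 26.1 and 16.1 FPKM in vehicle and 10.3, 10.1, 10.5, 10.2 and 9.86 FPKM in L-ala libraries. The L-ala values were within 1 FPKM of each other and all below vehicle (-0.82 ± 0.11, adjusted p = 8.22e-04), in all 22 alternative settings. The D-ala libraries read 9.3, 11.9, 12.2, 9.83 and 9.54 FPKM, and the difference between L-ala and D-ala was -0.04 ± 0.11 (95% interval -0.27 to 0.19). Slc38a3 (chr9:107650634-107669530, minus strand), a glutamine carrier of the basolateral membrane, read 30.1, 22.9, 28.4, 24.2 and 30.98 FPKM in vehicle and 23.1, 19.5, 20.6, 17.1 and 19.1 FPKM in L-ala libraries, with slight overlap (-0.43 ± 0.11, adjusted p = 0.0213; 0.0625 without L-ala replicate 4). In D-ala libraries Slc38a3 was higher, at 31.1 to 46.8 FPKM (L-ala minus D-ala -0.89 ± 0.11, adjusted p = 1.27e-04). Of 26 tested carriers, 2 rose and 4 fell, where 6.48% of all tested genes rose and 4.53% fell. With 1 library left out the falls numbered 1 to 7, the extremes being without L-ala replicate 4 and without L-ala replicate 5. They numbered 2 without any other single library apart from vehicle replicate 5 (3). The main apical carrier of neutral amino acids, Slc6a19, did not pass (-0.16, adjusted p = 0.438).

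Of 19 tested clock genes, 1 rose (Hlf, 0.30) and 3 fell (Cry2 with -0.35, Csnk1e with -0.33 and Nr1d1 with -0.52). Over all tested genes 6.48% rose and 4.53% fell. Per1 had the largest change of the list, 0.79, and did not pass in limma (adjusted p = 0.0813). No clock gene fell with the length trend removed, without vehicle replicate 4, or without L-ala replicates 1 or 4, and 1 fell without vehicle replicates 1 or 3 or L-ala replicate 2. Hlf no longer passed without vehicle replicates 1, 2 or 4 or L-ala replicates 1, 3 or 4 (adjusted p up to 0.0946). Against D-ala, 6 of 19 clock genes were lower under L-ala and 1 was higher, where 7.01% of all tested genes were lower and 6.66% higher.

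The largest falls by the rule were smaller than the rises and included genes of vessels, matrix and signalling. Aldh1a3 (chr7:66390890-66427517, minus strand), a retinoic acid synthesising enzyme, read 4.53, 4.57, 3.65, 7.04 and 4.38 FPKM in vehicle and 1.77, 0.91, 1.92, 2.05 and 1.46 FPKM in L-ala libraries (-1.15 ± 0.20, adjusted p = 0.00569). Sox18 (chr2:181669836-181671640, minus strand), a transcription factor of endothelial cells, read 6.24, 4.599, 3.12, 6.12 and 4.28 FPKM in vehicle and 1.88, 1.65, 2.21, 1.6 and 1.18 FPKM in L-ala libraries (-1.1003 ± 0.19, adjusted p = 0.00566). Tnn (chr1:160085029-160153580, minus strand), the matrix protein tenascin-N, read 1.85, 1.47, 1.33, 2.39 and 2.17 FPKM in vehicle and 0.535, 0.294, 0.504, 0.467 and 0.218 FPKM in L-ala libraries (-1.01 ± 0.14, adjusted p = 0.00127). Psca (chr15:74714839-74717069, plus strand), a small membrane-anchored protein, read 21.6, 21.1, 25.9, 29.2 and 28.1 FPKM in vehicle and 15.5, 10.6, 13.4, 13.9 and 11.6 FPKM in L-ala libraries (-0.90 ± 0.12, adjusted p = 8.22e-04). For each of these 4 genes all L-ala libraries were below all vehicle libraries, and the call held in all 22 alternative settings. Their D-ala means were also below the vehicle means, and L-ala minus D-ala did not pass for any of the 4 (adjusted p = 0.136 to 0.855). Its 95% interval was -0.68 to 0.18 for Aldh1a3, -0.85 to -0.03 for Sox18, -0.44 to 0.15 for Tnn and -0.21 to 0.29 for Psca. The other falls chosen by the rule were less firm. The neuropeptide gene Npy ranged from 4.36 to 7.16 FPKM in vehicle and from 0.987 to 3.76 FPKM in L-ala libraries (-1.16 ± 0.34, adjusted p = 0.0435). It passed in 9 of 22 settings and no longer passed without vehicle replicates 1, 2, 3, 4 or 5 or L-ala replicates 1, 2, 4 or 5 (adjusted p up to 0.114). Ugt1a10, a glucuronosyltransferase, went from 2.04 ± 0.612 to 0.477 ± 0.268 FPKM (-1.04 ± 0.29, adjusted p = 0.0361), and shares its last exons with the other Ugt1a genes, between which reads could have been divided. It no longer passed without vehicle replicates 1, 2, 4 or 5 or L-ala replicates 1, 3 or 4 (adjusted p up to 0.099), or with the length trend removed (0.0518). Prok1, a secreted angiogenic factor, fell by 1.003 (adjusted p = 0.0379), but no longer passed without vehicle replicates 1, 2 or 4 or L-ala replicates 1, 2, 3 or 4 (adjusted p up to 0.104).

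**Figure D5:**
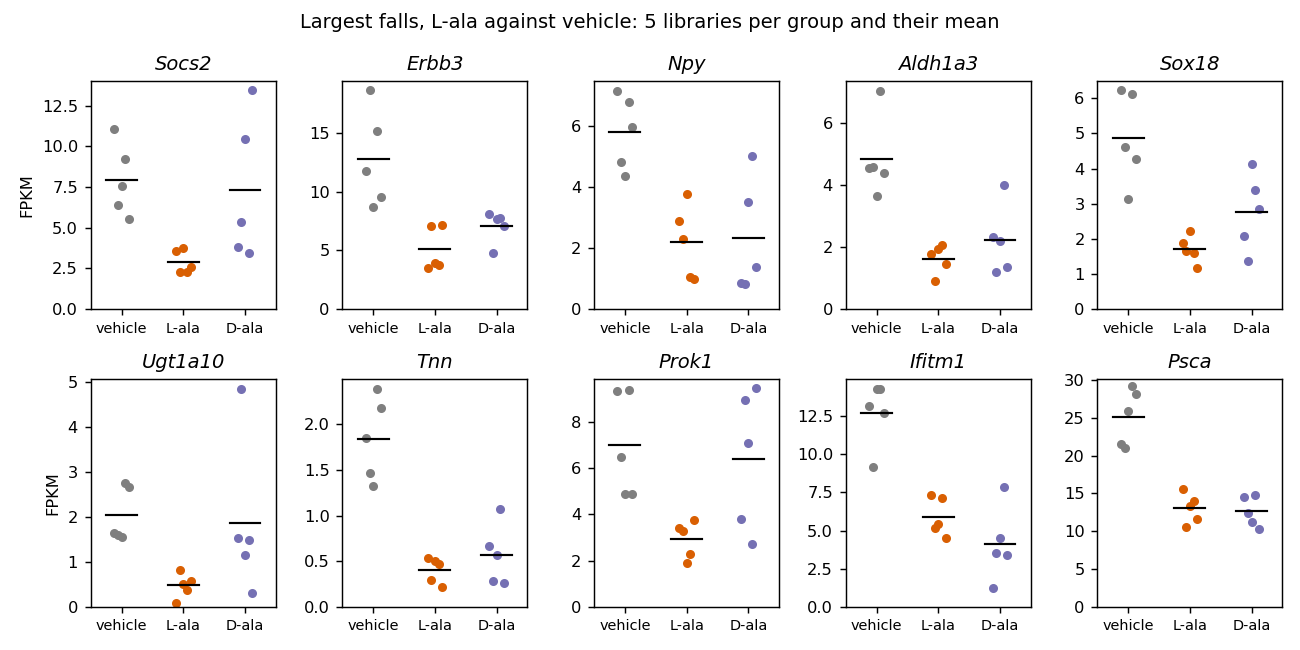
FPKM in each library (points, 5 per group) with the group mean (line) for the 10 largest falls under L-ala chosen by the stated rule; axes start at 0. In all 10 genes every L-ala library lies below every vehicle library, and in Socs2, Prok1 and Ugt1a10 some D-ala libraries reach the vehicle range.

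Endothelial markers were lower as a list. Of 13 tested members, 5 fell, none rose (0 at an unadjusted p under 0.05 in limma) and none had a positive change, with a median of -0.41. Across all tested genes 4.53% fell and 6.48% rose. Cdh5 (chr8:104101625-104144511, plus strand), the cadherin of endothelial junctions, read 4.31, 3.38, 4.25, 4.92 and 4.79 FPKM in vehicle and 2.78, 2.49, 3.09, 2.77 and 2.79 FPKM in L-ala libraries, without overlap (-0.49 ± 0.09, adjusted p = 0.00567). Kdr, a receptor of vascular endothelial growth factor, read 3.89, 2.42, 3.57, 4.49 and 4.57 FPKM in vehicle and 1.31, 1.404, 2.66, 1.97 and 1.06 FPKM in L-ala libraries, where L-ala replicate 3 overlapped vehicle replicate 2 (-0.85 ± 0.18, adjusted p = 0.0136). Flt1 (-0.73), Tek (-0.68) and Pecam1 (-0.61) also fell. Tek no longer passed without vehicle replicate 4 or L-ala replicate 1 (adjusted p up to 0.0678), and Pecam1 no longer passed without vehicle replicate 4 (adjusted p = 0.0713). With the length trend removed, 2 of them, Kdr and Cdh5, still passed and the median was -0.42. The count was 3 without vehicle replicate 4. The summed endothelial level was 178 to 278 FPKM in vehicle and 123 to 256 FPKM in L-ala libraries, so the groups overlapped.

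Interferon-stimulated genes leaned lower. Of 31 tested members, 5 fell and 1 rose, where 4.53% of all tested genes fell and 6.48% rose. The median of the list was -0.20. With the length trend removed 8 members fell, against 2.51% of all tested genes. Ifitm1, an antiviral membrane protein, read 13.1, 9.18, 14.3, 14.3 and 12.7 FPKM in vehicle and 7.34, 5.17, 5.41, 7.11 and 4.502 FPKM in L-ala libraries (-0.99 ± 0.27, adjusted p = 0.0332). The groups did not overlap, but Ifitm1 no longer passed without vehicle replicates 1, 3 or 4 or L-ala replicates 2, 3 or 4 (adjusted p up to 0.0872). Rtp4 (-0.57), Ifit2 (-0.54), Gbp2 (-0.50) and Irf9 (-0.38) fell, and the factor Irf1 rose (1.203, adjusted p = 0.026). Gbp2 no longer passed without vehicle replicate 4 or L-ala replicate 4 (adjusted p up to 0.0528), and Irf1 no longer passed without vehicle replicates 1 or 4 or L-ala replicates 3 or 4 (adjusted p up to 0.07). Without vehicle replicate 4 or L-ala replicate 4, 3 members fell. Proximal tubule markers showed 5 rises among 14 and no fall (1 at an unadjusted p under 0.05 in limma), with a median of 0.20. The shares of 6.48% and 4.53% over all tested genes apply here too. Miox, the renal enzyme of inositol breakdown, ranged from 2084 to 2488 FPKM in vehicle and from 2859.7 to 2987 FPKM in L-ala libraries (0.40 ± 0.08, adjusted p = 0.00728). There were 2 proximal tubule falls without L-ala replicate 5 and 1 under quantile normalization. The proximal tubule count of rises was 1 without vehicle replicate 4, 2 without L-ala replicates 3 or 4 and 3 without vehicle replicates 1 or 2 or L-ala replicates 1 or 2, and under quantile normalization it was 1 and the median changed sign. No podocyte, fibroblast, or smooth muscle and renin cell marker passed in limma, with 1, 2 and 0 of them at an unadjusted p under 0.05. Like the endothelial list, the 8 thick ascending limb markers held 0 positive changes (median -0.22, or -0.21 with the length trend removed). In limma 1 of them fell (Umod, adjusted p = 0.0395) and 3 were at an unadjusted p under 0.05. The Umod call was lost in most fits with 1 library left out.

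More genes with short transcripts than with long ones rose, and fewer did so with the length trend removed. Length here was inferred from the deposited values, and the smallest, 1.4e-05 kb, is below 1 base. Among the quintile of tested genes with the shortest transcripts (median 0.974 kb), 361 rose and 17 fell, and among the longest quintile (median 6.38 kb) 19 rose and 226 fell. With the length trend removed these counts became 83 and 60 in the shortest quintile and 78 and 48 in the longest. Respiratory chain and ATP synthase genes, with a median length of 0.547 kb, showed 25 rises among 76 and a median of 0.26. With the length trend removed 6 rose and the median was 0.06. The count was 3 without vehicle replicate 4, 4 without L-ala replicate 4, 8 without vehicle replicate 2 or L-ala replicate 1, 9 without L-ala replicate 3 and 14 without vehicle replicate 1. It was 39 without vehicle replicate 5 and 56 without L-ala replicate 5. Cytosolic ribosomal protein genes, with a median length of 0.617 kb and many near-identical copies in the genome, showed 8 rises among 63 and a median of 0.21. With the trend removed 2 rose, 1 fell and the median was 0.03. Under quantile normalization 1 respiratory chain gene (median 0.059) and 1 ribosomal protein gene (median 0.089) rose. The ribosomal count ran from 1 without vehicle replicate 4 or L-ala replicate 4 to 36 without L-ala replicate 5. It was 4 without vehicle replicates 1 or 2, 2 without L-ala replicates 1 or 3 and 13 without vehicle replicate 5. Among genes that passed in the shortest quintile, the largest changes were those of Cxcl1, Gadd45g, Gdf15, Cxcl2 and S100a8, of which all but S100a8 passed with the trend removed. In the longest quintile they were the rise of Sik1 and the falls of Rnf24 (-1.07), Aqp4 (-1.01), Tnn and Spon1 (-0.90), which all passed with the trend removed. Aqp4, a water channel, did not pass without vehicle replicate 4 (0.0634) or L-ala replicate 4 (0.0572). None of 25 nucleolar genes of ribosome assembly passed in limma (median -0.01, with 2 at an unadjusted p under 0.05 and 0 with voom weights).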

How the data were processed

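Messenger RNA of 15 WT mouse kidney samples was sequenced, 5 per group. TRIzol was used for extraction and a stranded mRNA kit for the libraries, per the labels' protocols. SAMtools 0.1.19, Bowtie2 2.2.3, TopHat2 2.0.13 and build mm10 stand in the submitters' processing notes, with no roles stated. For the program behind the gene values, its annotation and its use of strand, the sources used here give nothing, so reads of antisense partners, overlapping genes and near-identical copies may have been divided. The deposited values tested are FPKM per the file headers, for 23284 genes. The deposited log2 values, called processed signal per the file headers, are gene-centred log2 FPKM and were not tested. The column headed as a count was treated as a score, because the deposited whole numbers are read counts rescaled in each library and then rounded. Those factors gave the estimated depth, and FPKM carry no counting interval, so precision is the spread between libraries. The factors were inferred from gaps in the low whole numbers. The correlation of that fit was 0.825 in vehicle replicate 1 but 0.15 in D-ala replicate 1, 0.172 in L-ala replicate 2 and 0.191 in L-ala replicate 3. Depth is therefore uncertain in the libraries with a weak fit. Within groups, the variance between any pair of libraries was at least 5.13 times that of sampling noise.

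The test took the 11781 genes that reached 1 FPKM in 5 or more libraries and left out 11503. With limma 3.58.1 (R 4.3.3), log2(FPKM + 1) of all 15 libraries was fitted with a mean for each group, with trended and robust empirical Bayes moderation and Benjamini-Hochberg adjustment, at a threshold of 0.05. Length is the rescaled count per FPKM, and its trend was removed per library with lowess (span 0.3). Over 5760 genes the Spearman correlation of this length with the annotated transcript length was 0.88. The fit was tested on simulated data. GENCODE M21 on GRCm38, the assembly of mm10, gave the coordinates. Of the symbols, 20911 matched as written and 1915 as older names, while 458 did not match.

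Named genes were the 10 largest rises and 10 largest falls among called genes without overlap between groups and with a group mean of at least 1 FPKM, leaving out Gm and Rik models. Added were up to 4 called members per list by smallest p, 5 changes in the shortest and 5 in the longest quintile by length, and always Gpt, Dao, Pck1, Slc38a2 and Atf4. Other names describe a list or were chosen after their values were seen. The members and the 42 gene lists were chosen with earlier results of these data known. Lists are described by counts and medians, without a set test, to be read beside the 6.48% of all tested genes that rose and the 4.53% that fell. Alternatives were another pseudocount, no filter, other scalings, length and GC correction, weights, plain moderation, the 10 libraries alone, voom and each library left out; voom with summed rescaled counts was added after the data were seen. Promoter motifs were chosen with these results known, and the NF-kB motif was widened to the textbook consensus after the matches of a narrower form had been seen; both counts are given.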

Additional observations from a re-analysis of the deposited data

Results flagged for a closer look

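Of 92 groups of 5 libraries examined for a value far from the rest, 8 had one, and chance gives about 1 in 20. In the L-ala group, the highest library of Fos was at 62.3 FPKM with the next at 22.7, that of Nfkbiz at 13.6 with the next at 8.51, and that of Zfp36 at 244 with the next at 160.1. All 3 were L-ala replicate 3. In the vehicle group, the highest library was at 26.1 FPKM for Slc38a2 (next 18.5) and at 7.04 FPKM for Aldh1a3 (next 4.57), both in vehicle replicate 4. Tnfaip3 reached 4.39 FPKM in vehicle replicate 2 (next 2.02) and Plk3 47.5 FPKM in vehicle replicate 3 (next 15.05). The lowest mean correlation with the own group was that of L-ala replicate 5, at -0.118 with the next at 0.119.

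Among 42 genes compared between the treatments, 12 differed between L-ala and D-ala at an adjusted p under 0.05 in limma, on a background of 13.7% of all tested genes. Named genes were chosen largely by their change in L-ala against vehicle, and both comparisons use the same L-ala libraries. The count among them therefore cannot be read against that background. Higher under L-ala were Nfkbia by 2.36 (log2), Tnfaip3 by 2.296, S100a8 by 2.00, Cxcl1 by 1.87, Cxcl2 by 1.80 and S100a9 by 1.63. Lower under L-ala were Socs2 (-0.95), Slc38a3 (-0.89), Sik1 (-0.81), Pim1 (-0.65), Atf4 (-0.60) and Cdh5 (-0.29). The doses are not given, so dose and mirror form cannot be told apart.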

How the results depend on the processing

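The count of changed genes, 1297 (763 rose and 534 fell), was 575 (234 and 341) under quantile normalization, 603 (330 and 273) with the 10 libraries alone, 2308 (1368 and 940) with array weights and 2118 (280 and 1838) with voom on summed rescaled counts. With the length trend removed it was 809, with 296 falls. Rises were 58.8% of the calls, 40.7% under quantile normalization and 13.2% with voom on summed rescaled counts. With 1 library left out the count ran from 321 to 2580, rises from 174 to 1529 and falls from 147 to 1051, lowest without vehicle replicate 4 and highest without L-ala replicate 5. With voom, a pseudocount of 0.1, no filter, median-of-ratios scaling, GC correction, plain moderation, or length correction without L-ala replicate 5, the counts were within 1.5 times the main ones. The length difference of -0.49 ran from -0.42 to -0.62 with 1 library left out. It was not past the threshold without vehicle replicates 2, 3 or 4 or L-ala replicates 1, 3 or 4 (exact permutation p 0.0635 to 0.0794). Mdh2 reversed to -0.0039 and Slc34a1 to -0.063 under quantile normalization, and Atp5k to -0.0022 with the length correction without L-ala replicate 5. Of 112 named genes that passed, 45 passed in all 22 alternatives. The losses given gene by gene above cover mainly the fits with 1 library left out. Under quantile normalization 40 of the 112 calls were lost, and with the 10 libraries alone 25 were. The causes were not tested. The 5 libraries per group and an estimated 7.57 to 10.9 M reads limit the precision of genes at a few FPKM. No paired analysis was possible because the labels give no replicate numbers that groups share.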
